A study of Mus musculus with 4 samples.

Results

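The cadherins and protocadherins described here are the genes whose array name is Cdh followed by a number or begins with Pcdh. They were 67 of the 29411 gene names on a custom mouse expression array and had 109 of its 40628 gene probes. Every probe of a gene was read on its own. By family, 34 probes (23 genes) belonged to cadherins, 43 probes (30 genes) to the clustered protocadherins and 32 probes (14 genes) to the non-clustered protocadherins.

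The RNA came from C3H10T1/2 cells, a mouse embryo fibroblast line, that had been chemically transformed in culture, and the arrays compared transformed cells exposed to 2 mM phorone (2 arrays) with transformed cells given no phorone (control, 2 arrays). Phorone is an unsaturated ketone known for depleting cellular glutathione. Cells of both groups had first received 3-methylcholanthrene, a polycyclic hydrocarbon carcinogen, at 2.5 µg/ml for 2 days and, after 4 days in fresh medium, the phorbol ester TPA at 100 ng/ml given semiweekly for 2 weeks, and had then grown for 4 weeks without either agent. The controls therefore carried the transforming treatment too, and untransformed cells were not analysed here. The length of the phorone exposure, its vehicle, and whether the 2 arrays of a group came from separate cultures are details that no label states; the p-values thus rest on array-to-array spread alone, and that spread may be technical.

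Levels are given as the log2 of a probe's background-subtracted Cy3 signal minus the log2 of the 75th percentile of signal on the same array, so that 0 marks a probe as bright as that percentile. The arrays carried 61657 spots outside the controls, of which 51.1 to 52.2 percent were well above background on the phorone arrays and 52.3 to 52.7 percent on the control arrays, and no spot was saturated. The 75th percentile was 563 and 572 signal units on the phorone arrays and 701 and 747 on the control arrays. Across the 24207 gene probes tested, the phorone arrays correlated with each other at r = 0.995 and the control arrays at r = 0.987, and arrays of different groups at 0.936 to 0.951. These correlations run across probes, which are not independent replicates. On the slide the phorone arrays filled one row and the control arrays another, and an effect of row cannot be told apart from one of phorone. The median log2 difference, phorone minus control, of all tested probes was 0.11.

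Cadherins are calcium-dependent adhesion proteins that sit in the plasma membrane and bind cadherins on the neighbouring cell through repeated extracellular domains. Calcium is held between the repeats by short conserved signatures rich in aspartate and asparagine. Type I and type II cadherins hold catenins with their cytoplasmic tails, and through them the actin cytoskeleton; fibroblasts typically carry N-cadherin (Cdh2) and cadherin-11 (Cdh11) in place of the epithelial E-cadherin (Cdh1). Protocadherins share the repeats but not the classical catenin-binding tail. The clustered protocadherins lie in 3 neighbouring gene clusters, alpha, beta and gamma; each alpha or gamma first exon is spliced to constant exons shared by its cluster, whereas each beta gene stands alone in a single exon.

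The probes whose letters matter most for what follows are those of Cdh11, which moved in opposite directions, and both probes of Pcdh7, which list different RefSeq transcripts and moved together. Cdh11 lies on mouse chromosome 8, Pcdh7 on chromosome 5 and Pcdh19 on chromosome X. Each is written 5′ to 3′ as on the array. The probe of Cdh11 that was brighter after phorone holds, in an open reading frame, the letters for a calcium-binding signature of a cadherin repeat, marked in capitals from base 35. The other Cdh11 probes and those of Pcdh7 hold no such signature, and their first 30 of 60 bases are shown. A probe of Pcdh19, with the same kind of signature from base 2 in capitals, is set beside them.
Cdh11 52_P683146: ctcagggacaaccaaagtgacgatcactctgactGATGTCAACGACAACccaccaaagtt
Cdh11 51_P506204: tatttaaatgaaggagaagtccacggtgaa
Cdh11 52_P437795: tattttagtatacatacaaatatcagtatt
Pcdh7 51_P260740: aagttccattgcatgagaccttttagttgt
Pcdh7 01086: taatatggggctgcttaaatatcactggac
Pcdh19 51_P348232: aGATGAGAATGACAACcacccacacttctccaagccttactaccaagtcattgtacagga
The signature was present in 3 of the 109 family probes and in 10 of all 40628 gene probes. It shows which kind of domain a probe lies in and does not say which transcript was labelled.

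Most of the family that could be measured was dimmer after phorone. Of the 37 probes well above background on all 4 arrays, 30 (81.1 percent) were called lower in phorone and 1 (2.70 percent) higher, at an adjusted p below 0.05; among all 22220 probes measured on all 4 arrays, 18.3 percent were called lower and 25.5 percent higher. The median log2 difference of the 37 probes was -1.24, against 0.12 over those 22220. A further 10 family probes were well above background on both control arrays and on neither phorone array, which was so for 3.11 percent of all tested probes, and no family probe was well above background on both phorone arrays and neither control array (1.53 percent of all tested probes). With these 10 the family had 47 tested probes under 34 gene names. Of them 38 probes under 28 names were called lower (20.3 percent of all tested probes), 1 higher (25.5 percent) and 8 not called. Over all tested probes 45.8 percent were called in either direction. A name counts if any of its probes was called lower, so Cdh11, which also has the probe called higher, is among the 28. The names Pcdha6, Pcdha9 and Pcdhga7 are there through probes that each list 9 genes. Probes that entered through the control arrays alone could only differ in one direction, so a count that includes them is a description. In 42 of the 47 probes both phorone arrays lay below both control arrays (32.9 percent of all tested probes), and in 2 both lay above (45 percent).

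**Figure D1:**
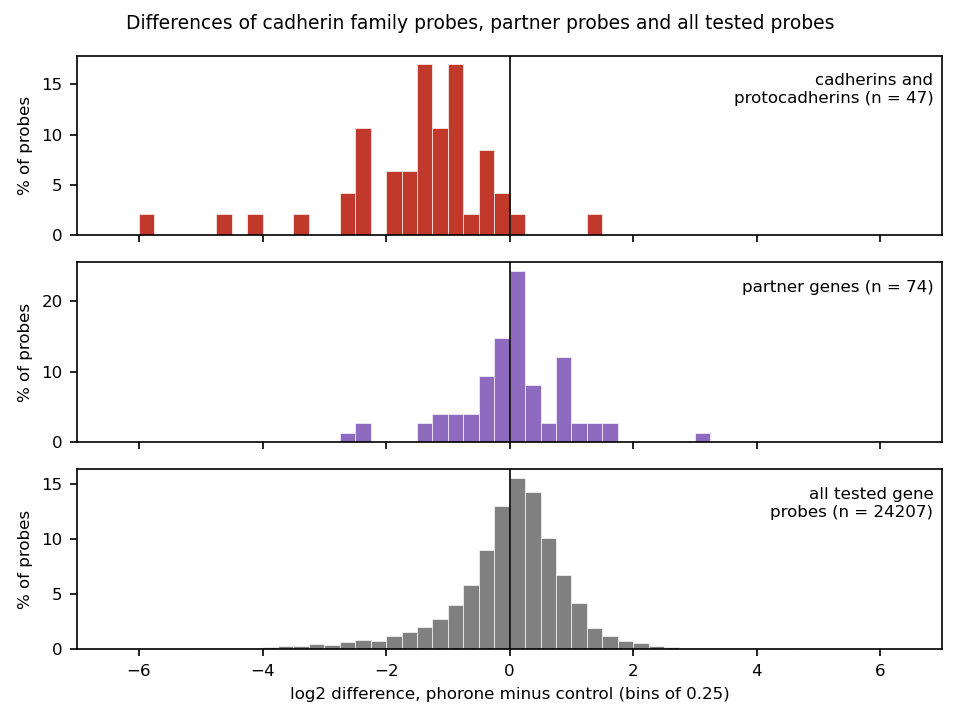
Share of probes (percent, vertical axis) by log2 difference, phorone minus control, in bins of 0.25, for the 47 tested cadherin and protocadherin probes (top), the 74 tested partner probes (middle) and all 24207 tested gene probes (bottom). The family's median lies at -1.30, the partners' at 0.09 and that of all tested probes at 0.11.

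The size of the family's shift depended on how the arrays were scaled. When the arrays were scaled to the added RNA spike-ins instead of the 75th percentile, every log2 difference moved up by about 0.44, the median of all tested probes moved to 0.54 and the family's to -0.86. All 38 probes called lower still had negative differences, but 15 of the 47 (31.9 percent) were called lower, against 6.64 percent of all tested probes. The 15 were the 2 dim probes of Cdh11, both of Pcdh7, both tested ones of Pcdh9, and 1 each of Cdh13, Cdh17, Cdh26, Pcdh12, Pcdh21, Pcdhb17, Pcdhb19, Pcdhb21 and Pcdhga1. Those of Cdh11, Pcdh9, Cdh26, Pcdh12 and Pcdhb19 had entered through the control arrays alone and could only differ in that direction. The share of 31.9 percent, which includes them, is therefore a description. Over all tested probes the split was then 4456 higher to 1607 lower, against 6168 higher to 4919 lower with the 75th percentile. The spike-in means of the control arrays differed by 0.74 on the log2 scale and those of the phorone arrays by 0.16. The directions below are therefore relative to the array's 75th percentile. A family or partner probe whose printed difference changed sign under the spike-ins is named as such. Sign changes of marker probes are not given.

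Among the 5 type I cadherins, the classical cadherins that bind catenins, Cdh2 was the only one above background. Its log2 level was 0.49 and 0.83 in phorone cells, against 1.28 and 1.01 in control cells. Both phorone arrays lay below both control arrays, but the difference of -0.49 (SE 0.18) was not called (adjusted p = 0.0818); with another background correction, normexp, it was -0.47 and was called. Cdh1 (E-cadherin), Cdh3 (P-cadherin), Cdh4 (R-cadherin) and Cdh15 (M-cadherin, of muscle) were not well above background on any array. The fibroblast line thus carried measurable N-cadherin RNA and no E-cadherin RNA detectable on these arrays, in either group.

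Cdh11, a type II cadherin of mesenchymal cells also called OB-cadherin, had 3 probes, and they did not move together. Probe 52_P683146, the one in the cadherin repeats, read 3.08 and 3.23 in phorone cells, against 1.88 and 1.90 in control cells. The groups did not overlap, and the difference of 1.27 (SE 0.13, adjusted p = 0.00225) made it the only family probe called higher. Probe 51_P506204 read -6.17 and -6.58 in phorone cells, against -0.43 and -0.47 in control cells. It was not well above background on either phorone array and was at least 18.6-fold lower there (adjusted p = 0.000234). Probe 52_P437795 read -6.23 and -5.74 in phorone cells, against -1.09 and -1.51 in control cells, and was at least 10.3-fold lower in phorone (adjusted p = 0.000458). Both thus had no signal distinguishable from background on the phorone arrays, against a clear signal on each control array, while the repeat-domain probe was brighter in phorone. The measured log2 differences of these dim probes, -5.92 and -4.68, shrank to -2.75 and -2.0 under the normexp correction, where both were still called lower. Each of the 3 probes lists a RefSeq transcript of Cdh11 and of no other gene. Whether they report different transcripts of Cdh11 was not tested.

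**Figure D2:**
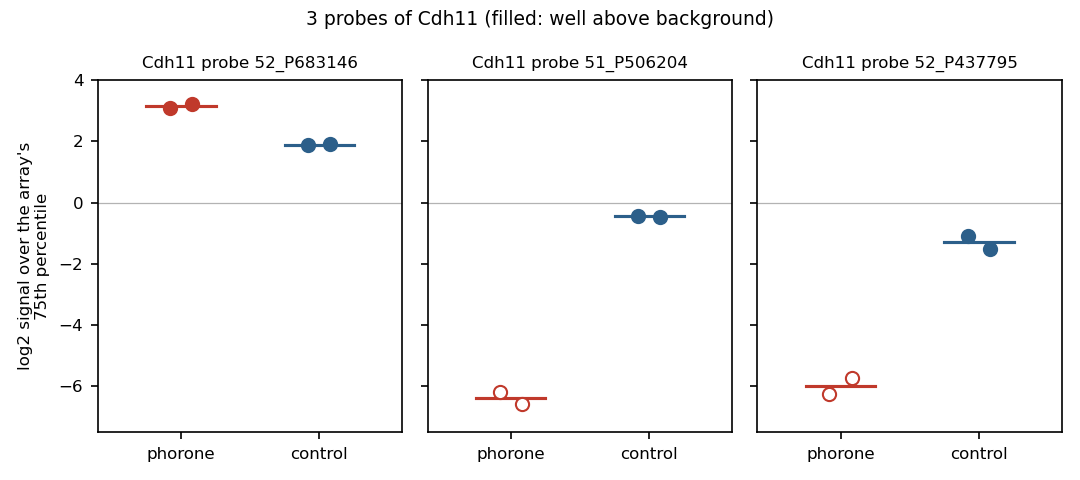
Log2 signal over the array's 75th percentile (vertical axis) for the 3 probes of Cdh11, 1 point per array and a bar at each group's mean, with phorone at the left and control at the right of each panel; filled points are well above background. Probe 52_P683146 is higher on both phorone arrays, and probes 51_P506204 and 52_P437795 are not well above background on either.

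The other type II cadherins were dim or at background. Cdh10, known mainly from brain, read -5.51 and -5.21 in phorone cells, against -4.52 and -4.45 in control cells. It was well above background in control cells alone and was at least 1.14-fold lower in phorone (adjusted p = 0.00966); under normexp its difference was -0.02 and was not called. Cdh20 read -1.83 and -2.05 in phorone cells, against -2.05 and -1.56 in control cells on probe 51_P471386. These groups overlapped, and the difference of -0.14 was not called (adjusted p = 0.613) and changed sign under the spike-ins; its second probe, 52_P436564, was at background. Cdh5 (VE-cadherin of endothelium), Cdh6, Cdh7, Cdh8, Cdh9, Cdh12, Cdh18, Cdh19, Cdh22 and Cdh24 were not well above background on any array.

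The 3 tested probes of cadherins outside the classical types were called lower in phorone (20.3 percent of all tested probes). The 1 of Cdh26 had entered through the control arrays alone and could only differ in that direction. Cdh13 (T-cadherin), which is tied to the membrane by a lipid anchor and has no cytoplasmic tail, read -0.10 and -0.37 in phorone cells, against 2.10 and 2.36 in control cells. The groups lay far apart relative to their spread, and Cdh13 fell by 2.46 on the log2 scale (SE 0.17, adjusted p = 0.000845), that is, it was 5.52-fold lower in phorone. Cdh17 (LI-cadherin), known from liver and intestine, read -4.27 and -4.38 in phorone cells, against -1.91 and -1.54 in control cells. It remained above background on all 4 arrays and fell by 2.60 (SE 0.17, adjusted p = 0.000785), or by 1.31 with normexp. Cdh26 read -6.00 and -5.13 in phorone cells, against -1.90 and -1.20 in control cells. It was well above background on the control arrays alone and was at least 8.70-fold lower in phorone (adjusted p = 0.00174); its measured difference was -4.02, and -1.67 with normexp. Cdh16 (kidney-specific cadherin) was not detected, and 1 of the probes of Cdh23, a cadherin of the hair-cell tip link, was above background on 1 phorone array and nowhere else.

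Of the non-clustered protocadherins, 10 of 12 tested probes (7 of 9 genes) were called lower (20.3 percent of all tested probes) and none higher (25.5 percent). Of the 12, 3 were well above background on the control arrays alone and could only differ in that direction. Among the 9 measured on all 4 arrays 7 were called lower, against 18.3 percent of all probes measured on all 4 arrays. Pcdh7 had 2 probes, and both fell. Probe 51_P260740 read -0.70 and -0.67 in phorone cells, against 1.65 and 1.59 in control cells (difference -2.30, SE 0.12, adjusted p = 0.00053). Probe 01086 read -3.96 and -3.83 in phorone cells, against -1.19 and -1.79 in control cells (difference -2.41, SE 0.23, adjusted p = 0.00183; -1.32 with normexp). The replicates of each group lay close together, apart from the control arrays on probe 01086 (-1.19 and -1.79). The 2 probes gave the same difference within their errors. Pcdh21, the photoreceptor cadherin now named Cdhr1, read -2.90 and -2.93 in phorone cells, against -0.57 and 0.03 in control cells. It fell by 2.65 (SE 0.22, adjusted p = 0.00143), and its groups did not overlap.

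Pcdh12 and Pcdh9 were not well above background on either phorone array. Pcdh12, a protocadherin known from endothelium and trophoblast, read -5.55 and -5.16 in phorone cells, against -3.01 and -3.02 in control cells on probe 52_P515769. That is at least 3.16-fold lower in phorone (adjusted p = 0.000978), while its other probe was at background throughout; the measured difference was -2.34, and -0.54 with normexp. For Pcdh9, known mainly from brain, probe 51_P432432 read -4.90 and -5.37 in phorone cells, against -3.22 and -3.45 in control cells. Phorone was at least 2.53-fold lower (adjusted p = 0.0029), with a measured difference of -1.80, and -0.47 with normexp. Probe 51_P475704 of Pcdh9 read -7.10 and -6.86 in phorone cells, against -4.43 and -4.53 in control cells, and was at least 1.14-fold lower (adjusted p = 0.000617); its measured difference was -2.50, and with normexp it was -0.22 and not called. The third probe of Pcdh9, 51_P124262, was at background on every array.

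Moderate differences were seen for Pcdh17, Pcdh18 and Pcdh19. Pcdh18 read -1.12 and -1.03 in phorone cells, against 0.33 and 0.32 in control cells (difference -1.40, SE 0.12, adjusted p = 0.00157). Pcdh19, a delta-protocadherin that acts together with N-cadherin, read -0.10 and -0.08 in phorone cells, against 0.77 and 1.03 in control cells on probe 52_P432969. That difference was -0.99 (SE 0.14, adjusted p = 0.00572). Its second probe, 51_P348232, whose letters are printed above, read -4.35 and -4.14 in phorone cells, against -3.63 and -3.27 in control cells, a difference of -0.79 (adjusted p = 0.0198) that was -0.22 and not called under normexp. This dim probe also lost its call without the second control array (-0.61) or the first phorone array (-0.69). Pcdh17 read -1.03 and -1.09 in phorone cells, against -0.12 and -0.41 in control cells (difference -0.80, SE 0.15, adjusted p = 0.0121). In all these genes the groups did not overlap.

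Pcdh1, a protocadherin of airway epithelium, was the only non-clustered member with a positive difference. It read 0.19 and -0.05 in phorone cells, against -0.05 and -0.24 in control cells. The difference of 0.22 (SE 0.15) was not called (adjusted p = 0.292). Pcdh11x, on a probe for a predicted transcript (03080), read -3.11 and -3.14 in phorone cells, against -2.91 and -2.86 in control cells. Its difference of -0.24 was not called (adjusted p = 0.159) and changed sign under the spike-ins, and its 4 other probes were at background. Pcdh8, Pcdh15, Pcdh20 and Pcdh24 (now Cdhr2) were not well above background on any array, and Pcdh10 was so with 1 probe on 1 phorone array.

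**Figure D3:**
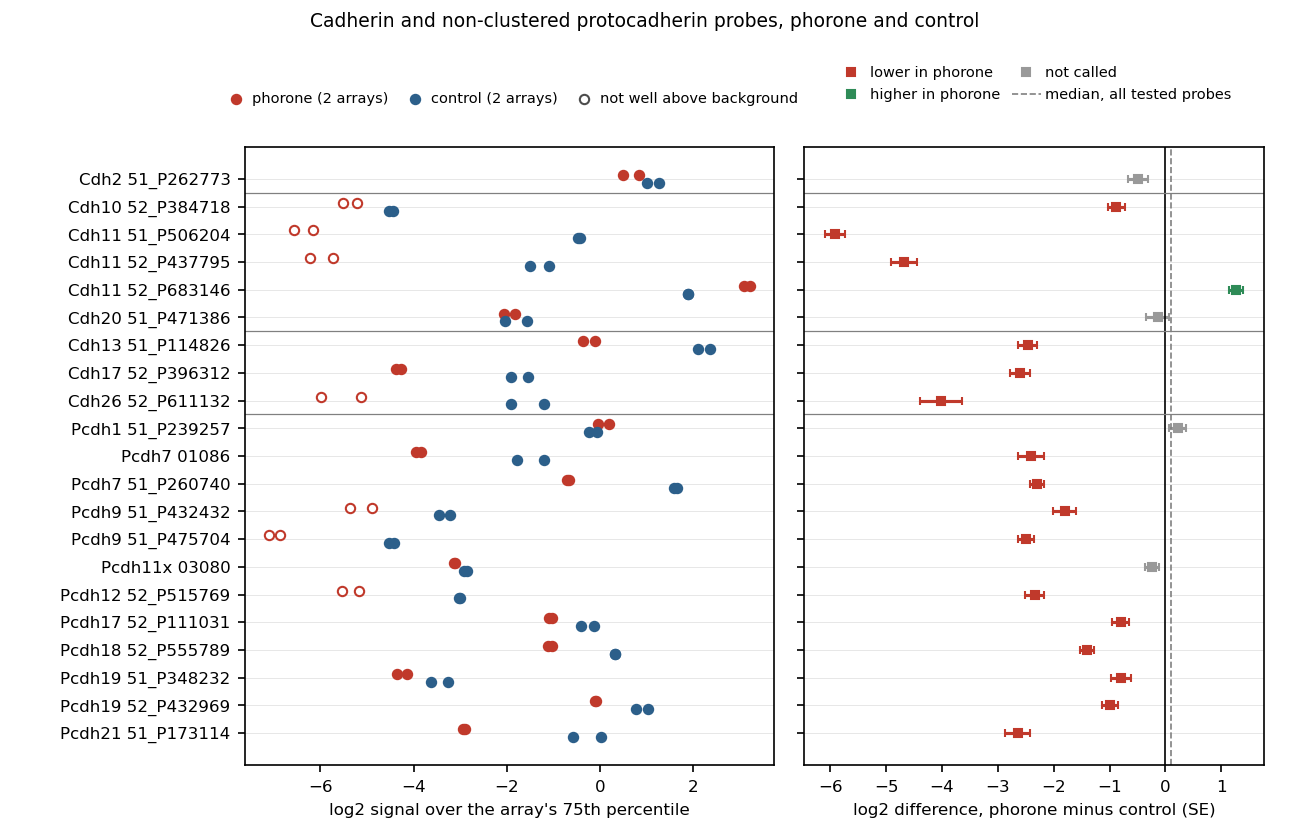
Left, log2 signal over the array's 75th percentile for each tested cadherin and non-clustered protocadherin probe, 1 point per array, phorone above control in each row, with open points not well above background; right, log2 difference, phorone minus control, with its standard error. Cdh11 52_P683146, at 1.27, is the only probe called higher, and Cdh11 51_P506204, at -5.92, lies lowest.

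The clustered protocadherins, which lie on mouse chromosome 18, were lower with few exceptions. Of their 26 tested probes 22 were called lower and none higher. Among the 23 measured on all 4 arrays 21 (91.3 percent) were called lower, with a median log2 difference of -1.30. Of all probes measured on all 4 arrays 18.3 percent were called lower. The 23 include 3 alpha and 3 gamma probes, all called lower, that each list the same 9 genes of their cluster. Those of a cluster are repeated readings and not separate genes. In 24 of the 26 probes both phorone arrays lay below both control arrays (32.9 percent of all tested probes). The array covered the clusters unevenly: it carried all 22 beta genes that RefSeq lists, but 3 of 14 alpha and 5 of 22 gamma genes.

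In the beta cluster, 16 probes from 13 genes were tested, 2 of them through the control arrays alone. Of the 16, 15 probes from 12 genes were lower (20.3 percent of all tested probes). Each of these probes lists RefSeq transcripts of 1 gene alone, so the beta probes are separate readings of separate genes, although related sequences can cross-hybridise. Pcdhb17 read -1.48 and -1.52 in phorone cells, against 0.50 and 0.46 in control cells on probe 52_P180741 (difference -1.98, SE 0.12, adjusted p = 0.000693). Its second probe, 51_P337771, read -0.47 and -0.65 in phorone cells, against 1.13 and 0.78 in control cells (difference -1.52, SE 0.17, adjusted p = 0.00294). Both probes of Pcdhb17 therefore had groups that did not overlap. Pcdhb21 read -0.51 and -0.61 in phorone cells, against 1.19 and 1.03 in control cells (difference -1.68, SE 0.14, adjusted p = 0.00126). Pcdhb19 read -7.09 and -6.85 in phorone cells, against -3.86 and -3.43 in control cells on probe 51_P268469. It was well above background in control cells alone and was at least 2.04-fold lower in phorone (adjusted p = 0.000639), and its measured difference of -3.33 shrank to -0.55 with normexp; its other probe was at background.

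The remaining beta genes fell by similar amounts. Pcdhb15 had 2 probes with differences of -1.31 and -1.30, and Pcdhb16 had 2 with -0.98 and -1.13. Pcdhb5 differed by -1.35, Pcdhb6 by -1.45, Pcdhb7 by -1.01, Pcdhb14 by -1.23, Pcdhb18 by -0.96, Pcdhb20 by -1.53 and Pcdhb22 by -1.09, all called. In these 9 genes adjusted p ranged from 0.00152 for Pcdhb6 to 0.0233 for Pcdhb18. Pcdhb18 lost its call without the second phorone array (-0.92), and Pcdhb7 without either control array (-1.0 and -1.01) or without the second phorone array (-0.71); with normexp both were called at -0.51 and -0.37. Pcdhb12 read -5.87 and -4.74 in phorone cells, against -4.66 and -4.18 in control cells, and was above background in control cells alone. Its 2 phorone arrays lay far apart, and the difference of -0.89 was not called (adjusted p = 0.129); it was -1.45 and called without the second phorone array.

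The beta genes with signal lay partly in runs. In the order in which RefSeq lists the genes along the cluster, the tested genes were Pcdhb5, Pcdhb6, Pcdhb7, Pcdhb12 and the whole run from Pcdhb14 to Pcdhb22. None of Pcdhb1 to Pcdhb4, Pcdhb8 to Pcdhb11 or Pcdhb13 was tested. Of these, Pcdhb4, Pcdhb10 and Pcdhb11 were above background on 1 control array each and on no phorone array, and Pcdhb1, Pcdhb2, Pcdhb3, Pcdhb8, Pcdhb9 and Pcdhb13 were not on any. The second probe of Pcdhb5 was at background too.

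**Figure D4:**
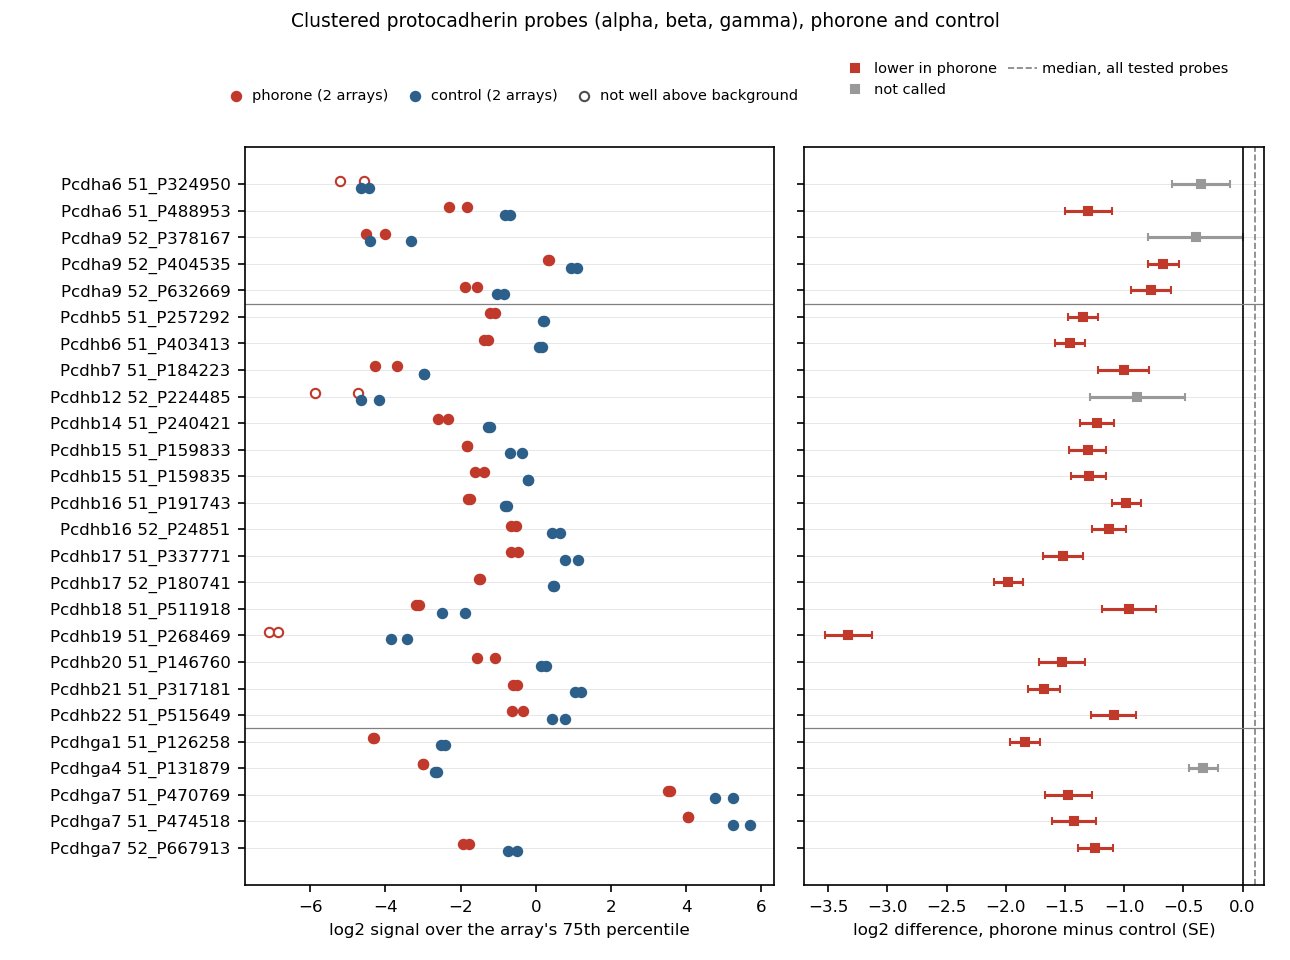
Left, log2 signal over the array's 75th percentile for the tested probes of the alpha, beta and gamma protocadherin clusters, 1 point per array, phorone above control in each row, with open points not well above background; right, log2 difference, phorone minus control, with its standard error. All 26 differences lie below 0, from -0.33 (Pcdhga4) to -3.33 (Pcdhb19), and 22 are called lower.

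In the alpha cluster the array probes split into those that list many alpha transcripts, taken here as the shared constant exons, and those for single genes. Probes Pcdha6 51_P488953, Pcdha9 52_P404535 and Pcdha9 52_P632669 each list transcripts of the same 9 alpha genes, so they read the alpha transcripts of those genes in sum, and the gene they are named for cannot be told apart from the others. Pcdha6 51_P488953 read -1.82 and -2.30 in phorone cells, against -0.83 and -0.69 in control cells (difference -1.30, adjusted p = 0.00655). Pcdha9 52_P404535 read 0.34 and 0.36 in phorone cells, against 1.09 and 0.95 in control cells (difference -0.67, adjusted p = 0.0125). Pcdha9 52_P632669 read -1.56 and -1.87 in phorone cells, against -0.84 and -1.04 in control cells (difference -0.77, adjusted p = 0.0179). All 3 shared probes were thus lower in phorone, but 52_P404535 lost its call without either phorone array (-0.66 and -0.68) and 52_P632669 without the first control (-0.67) or the second phorone array (-0.62). The single-gene probes were dimmer: Pcdha6 51_P324950 differed by -0.35 (adjusted p = 0.293) and Pcdha9 52_P378167 by -0.40 (adjusted p = 0.452). Neither was called, the groups of both overlapped, and both changed sign under the spike-ins and under normexp. Pcdha4 was not above background.

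The gamma cluster showed the same division. Pcdhga7 51_P470769 read 3.57 and 3.51 in phorone cells, against 4.77 and 5.25 in control cells (difference -1.47, SE 0.20, adjusted p = 0.0045). Pcdhga7 51_P474518 read 4.05 and 4.06 in phorone cells, against 5.26 and 5.71 in control cells (difference -1.43, SE 0.19, adjusted p = 0.00424). Pcdhga7 52_P667913 read -1.93 and -1.78 in phorone cells, against -0.73 and -0.49 in control cells (difference -1.24, SE 0.15, adjusted p = 0.00345). These 3 probes each list the same 9 gamma genes, of the A, B and C types, and are taken as the shared constant sequence, which was bright on all 4 arrays for the first 2 of them. The probe for Pcdhga7 alone, 51_P405358, was at background. Pcdhga1, on a probe that lists 1 gene, read -4.33 and -4.30 in phorone cells, against -2.53 and -2.42 in control cells, a difference of -1.84 (SE 0.13, adjusted p = 0.000854; -0.80 with normexp). Pcdhga4 read -3.0 and -2.99 in phorone cells, against -2.69 and -2.64 in control cells. Its groups did not overlap, but the difference of -0.33 was not called (adjusted p = 0.077) and changed sign under the spike-ins. Pcdhgb4 was above background on 1 control array and Pcdhga9 on none.

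The other genes of cadherin adhesion did not move as a body. A list of catenins, nectins, desmosomal and atypical cadherins, proteases and regulators held 118 probes for 63 genes, of which 74 probes were tested. Of these, 17 (23.0 percent) were called higher and 15 (20.3 percent) lower, close to the shares over all tested probes, and their median was 0.09. Under the spike-ins 16 were higher and 3 lower, and without the second phorone array 9 were lower. The catenins that carry the cadherin tail's link to actin were among the probes not called. Ctnnb1 (beta-catenin) differed by 0.15 and 0.06 on its 2 probes and Ctnna1 (alpha-catenin) by -0.31. Ctnna1 changed sign under the spike-ins (0.13). Of 14 catenin-family probes 3 were higher and 2 lower, shares at or below those of all tested probes, and without the second phorone array 1 was higher and none lower; Pkp3 and Pkp2, plakophilins of desmosomes, rose by 1.26 and 0.77, Arvcf fell by 0.95, and Ctnnd1 (p120, which holds cadherins at the membrane) gave 0.77 on one probe and -0.73 on another. Under the spike-ins, neither Arvcf nor the second Ctnnd1 probe was called.

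Nectins are immunoglobulin-type adhesion proteins that work beside cadherins. With the proteins that link them to actin, they were higher on 9 of 16 probes (25.5 percent of all tested probes) and lower on 2 (20.3 percent). Most of the 9 were repeated probes of Pvr and Pvrl3. With the brightest probe per gene 3 of 7 were higher and 1 lower, and the class median was 0.14 instead of 0.78. Of all 17033 probes in that setting 4132 were higher and 3624 lower. Pvr, the poliovirus receptor of the nectin-like group, rose on all 4 probes, by 1.74, 1.37, 1.25 and 1.01. Pvrl3 (nectin-3) rose on all 3 probes, by 0.98, 0.93 and 0.81. The largest falls were on 1 of 2 probes of Pvrl2 (nectin-2), which differed by -1.05 while the other differed by 0.76, and on 1 of 2 probes of Vcl (vinculin), by -0.88. Under the spike-ins these were -0.61 and -0.44, and neither was called; the Pvrl2 probe also lost its call without the second control (-0.75) or the second phorone array (-0.79). Among the desmosomal cadherins 2 probes were tested. Dsg2 (desmoglein-2) read -3.29 and -4.37 in phorone cells, against -7.09 and -7.0 in control cells. It was at least 1.96-fold higher in phorone (adjusted p = 0.00293). Dsc3 differed by -0.06 and was not called, and it changed sign under the spike-ins (0.37).

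The atypical cadherins are large relatives that signal in planar polarity and growth control. Of their 11 tested probes 4 were lower (20.3 percent of all tested probes) and none higher (25.5 percent). Fat4, on both probes, differed by -2.48 (SE 0.15) and -2.43 (SE 0.12), with adjusted p of 0.000683 and 0.000458. Its partner Dchs1 was at least 3.47-fold lower on probe 51_P394558 (adjusted p = 0.000711), while its other probe differed by 0.24 and was not called. Probe 51_P394558 had entered through the control arrays alone and could only differ in that direction. With signal required on all 4 arrays, 3 of 10 atypical cadherin probes were lower, against 4447 of all 22220 probes. Clstn3 (calsyntenin-3) fell by 0.50; it was not called with any 1 array left out, and under the spike-ins its difference was -0.06 and not called.

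Transcription factors known for repressing Cdh1 were lower on 7 of 12 probes (20.3 percent of all tested probes), and none was higher (25.5 percent). Twist2 fell by 1.45, Tcf4 by 1.37 and Snai2 (Slug) by 1.09, and Zeb1, Snai1, Zeb2 and Tcf3 were also called lower on 1 probe each. The other probes of Tcf4 (-0.19), Zeb2 (0.13 and -0.13) and Tcf3 (0.08), and Twist1 (-0.27), were not called. With 1 array left out 5 to 6 probes were lower, Tcf3 losing its call each time, and without the first control array the Zeb2 probe at 0.13 was called higher. Under the spike-ins none of the 12 was called, and the called Tcf3 probe changed from -0.40 to 0.04. Twist1 (to 0.17), the Tcf4 probe at -0.19 (to 0.25) and the Zeb2 probe at -0.13 (to 0.30) changed sign too. Cdh1 stayed at background in both groups, as given above. Of the regulators of the clustered protocadherins, 3 of 13 probes were higher, a share near the 25.5 percent of all tested probes, and none was lower: Wapl, which releases cohesin from DNA, rose by 1.52 on 1 of its 2 probes, and Smchd1, which silences clustered protocadherin genes, rose by 0.76 and 0.67 on 2 of its 3 probes. Under quantile, median and spike-in scaling 1 Smchd1 probe each was not called, which left 2 probes higher, and without the second phorone array neither was, which left 1. Ctcf, which binds at protocadherin promoters, differed by 0.06. Among the proteases that process cadherins, Furin (0.35) and Adam10 (0.48) were not called.

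The letters CACCTG or its reverse complement CAGGTG, the E-box to which Snail and Zeb factors bind, were sought on both strands in RefSeq promoters (GRCm38.p6), windows of 300 bases of which 250 lie before the gene start. They were present in 20.2 percent of all 32851 windows, in 7 of the 27 windows found for family genes and in 2 of the 10 windows of genes with a tested probe, those of Pcdh7 and Cdhr1; in the 250 bases before the start alone, Cdhr1 held them and Pcdh7 did not. A match is a description of these letters and not of binding.

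The identity of the cells was checked with marker lists. All 11 fibroblast genes had a probe above background. In phorone 10 of 17 tested fibroblast probes were lower (20.3 percent of all tested probes) and none higher (25.5 percent). Of the 17, 2 were above background on the control arrays alone. Dcn (decorin) differed by -4.52, Col3a1 by -3.38 and Pdgfra by -2.98 on their brightest probes. The 7 probes not called included the brightest of Col1a1 (-0.30), whose other probes were called lower (-2.21 and -1.44). Also not called were Vim (vimentin, -0.36), all 3 of Fn1 (fibronectin, -0.08, 0.04 and 0.28) and both of Thy1 (0.26 and -0.46). The summed linear level of the fibroblast probes, relative to the 75th percentile, was 704 and 745 in phorone cells, against 1632 and 1708 in control cells. The called fibroblast probes thus went in the same direction as most of the cadherin family, and their part in the family's difference was not tested. In RNA from whole cultures, fewer cells of a kind and less RNA per cell cannot be told apart. Of 10 epithelial probes 6 were tested and none was called (45.8 percent of all tested probes were), with Epcam, Krt18, Krt19 and Cldn7 not tested. The summed epithelial level was 0.561 to 0.698 in phorone cells, against 0.473 to 0.564 in control cells. The defining endothelial genes Pecam1, Kdr and Vwf, the leukocyte genes Ptprc and Itgam and the muscle genes Myod1, Myog and Myf5 did not pass the filter in either group. Of the endothelial list, Tek passed, through the control arrays alone. It was at least 1.68-fold lower in phorone, with a measured difference of -3.05.

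Markers of other mesenchymal fates were also lower. All 4 tested chondrocyte probes were called lower (20.3 percent of all tested probes). Their differences were -3.08 and -1.09 for Col2a1 and -2.66 and -2.38 for Sox9. The summed chondrocyte level was 1.47 and 1.65 in phorone cells, against 9.19 and 10.2 in control cells. Fabp4, of adipocytes, was called lower on 2 of 3 probes (-0.65 and -0.70), with Adipoq and Plin1 not tested. Single genes of other lists were called lower too: Map2 of neurons (-1.77), Des of muscle (-1.79) and Bglap1 of osteoblasts. Bglap1 was well above background on the control arrays alone and was at least 1.74-fold lower in phorone (measured difference -2.34). Among blood genes Cd68 was called higher (1.26). The part of these genes in the family's difference was not tested either.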

How the data were processed

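Total RNA was labelled with Cy3 from an oligo-dT primer and hybridised to a custom 1-colour Agilent array, per the labels' protocols, so a probe's signal depends on its distance from the transcript's 3′ end. The authors deposited scanner output; per the file headers it comes from Agilent Feature Extraction 10.7.3.1, whose background-subtracted processed intensity was the starting unit. The deposited value table of the authors holds log2 values, each array's log2 signal minus 1 number; it was used as an alternative.

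Intensities were taken as log2 and reduced by each array's 75th percentile. Outlier spots were dropped (71 gene probes lost), and testing required that both arrays of phorone, of control or of both be well above background. limma 3.58.1 (R 4.3.3) fitted phorone minus control over 24207 gene probes, with 2 residual degrees of freedom, two-sided moderated tests and Benjamini-Hochberg adjustment; calls are at an adjusted p below 0.05. With 2 arrays a group, the number of arrays limits the precision. For a probe not above background in one group, the fold is a bound against the dimmest signal well above background. The fit was tested on simulated data.

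Every tested family probe could be named; among larger classes the largest changes and those detected in 1 group were given in full. The result of 1 partner gene is not reported here. Family members, partner lists and marker lists were chosen with earlier results of these data known. Symbols follow RefSeq where a probe's accession matched (28136 of the 40628 gene probes). Alternatives were the scaling (median, quantile, spike-ins, detected probes), normexp correction with offset 50, the filter, 1 probe per gene, noncoding probes, the authors' table, the replicate block and leaving out each array.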

Additional observations from a re-analysis of the deposited data

How the results depend on the processing

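Of the 38 family probes called lower, all 38 stayed called under quantile and median scaling, scaling to detected probes, with noncoding probes in the fit, in the authors' deposited table and with the replicate block, 35 under normexp, 34 with no filter on dim probes and 15 under the spike-ins; none changed sign in any of these. Under spike-in scaling the clustered protocadherins had 4 probes called lower, the non-clustered 6, the partners 3 and all gene probes 1607, and the medians were -0.86 for the family, 0.52 for the partners and 0.54 for all. With no filter, 2 family probes were called higher, 9 partners lower and 3823 gene probes higher, and the family's median, now including undetected probes, was -0.35; under normexp it was -0.94. Requiring signal on all 4 arrays left 2 cadherin probes lower, since 4 of the 6 were below background after phorone. With the brightest probe per gene 10 partner probes were called higher. Leaving out 1 array at a time, which assumes that the lone array of a group varies like the other group, gave 35 to 36 family probes lower, 9 to 13 partners lower (9 without the second phorone array) and 3502 to 5819 gene probes higher (3502 without the same array). Differences that were not called changed sign as follows: under the spike-ins Pcdha6 51_P324950 (0.087), Pcdha9 52_P378167 (0.040), Pcdh11x 03080 (0.19), Cdh20 51_P471386 (0.30) and Pcdhga4 51_P131879 (0.10); under normexp Pcdha6 51_P324950 (0.20) and Pcdha9 52_P378167 (0.044); and with 1 array left out Pcdha9 52_P378167 (-0.95 to 0.16) and Cdh20 51_P471386 (-0.38 to 0.11), both turning without the second control array. Apart from the scaling shift and the smaller set of probes, the cause was not tested. The replicate numbers pair nothing that the labels state, and differences between replicates 1 and 2 correlated at -0.04 between the groups; with the replicate number as a block, 39 family probes were lower, the added one being Pcdhb12 (adjusted p = 0.0266). Replicate number and slide column coincide, so no separate fit for position was made. Signal at background limits what can be said of 56 family probes, and 27 genes had no probe above it on any array.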
